A study of Caenorhabditis elegans with 8 samples.

Results

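The flp and nlp genes encode the precursors of most neuropeptides of C. elegans. The members described here are the genes of the deposited table named flp or nlp with a number, without nlp-27 to nlp-34, which encode antimicrobial peptides of the epidermis. This rule gave 80 of 14541 genes, of which 30 were flp genes and 50 were nlp genes. RNA-seq of whole animals was performed in pals-17(*) mutants and in wild-type animals, with 4 libraries of each strain. The mutants carry pals-17(*), an allele with an early stop codon in the third exon of pals-17, a gene whose product keeps the intracellular pathogen response (IPR) off. They were harvested 72 h after synchronized L1 larvae were placed on E. coli OP50-1 (OP-50 in the labels) at 20 °C. The wild-type strain is N2, and it was harvested after 48 h under the same food and temperature, because the mutants grow more slowly. Growth of the mutants is also asynchronous, so that their libraries hold animals averaging the L4 stage together with younger and older ones. Genotype, growth time and developmental stage therefore cannot be told apart in this comparison.

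Neuropeptides are made as longer precursors, which are cut by proprotein convertases, trimmed, often amidated at the C terminus and packed into dense core vesicles. After release, most of them act on G protein-coupled receptors and tune behaviors such as locomotion, feeding, sleep, defecation and egg laying. The flp genes encode FMRFamide-like peptides, which share an RFamide end. The nlp genes encode a mixed class of peptides without that end. Most members are expressed in small sets of neurons, and some also in the intestine or in other tissues.

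All 8 libraries were deep, with 18629170 to 21891721 reads in the mutants and 17871320 to 23378799 reads in the wild type. One read was worth 0.0362 to 0.0446 CPM in the mutants and 0.0522 to 0.0681 CPM in the wild type. CPM means counts per 1000000 reads of a library size that the authors scaled, by a factor of 1.20 to 1.26 in the mutants and 0.793 to 0.821 in the wild type, so that levels depend on that scaling. Transcripts of pals-17 itself had 4.60, 4.45, 4.07 and 4.36 CPM in mutant replicates 1 to 4, against 15.04, 14.3, 15.5 and 19.3 CPM in wild-type replicates 1 to 4. The strains differed across most of the transcriptome: limma called 42.5% of the 14541 genes higher and 41.2% lower in the mutants at a Benjamini-Hochberg adjusted p under 0.05, or 83.7% in either direction. Marker lists moved with the strains, including 14 of 14 oocyte and embryo genes and 8 of 8 sperm genes that were higher, and 7 of 7 intestinal and 9 of 9 cuticle and molting genes that were lower. Of 8 body wall muscle genes, 6 were lower and 2 did not pass, with a median of -0.63 on the log2 scale and values of -0.84 for unc-54 and -0.70 for myo-3, both myosin genes. The median log2 CPM of the oocyte and embryo list lay between 7.97 and 8.39 in mutant libraries and between 0.73 and 3.19 in wild-type libraries, and wild-type replicate 4 had the lowest value. Genes of all 5 lists were detected in every library, and their part in the values of the neuropeptide genes was not tested.

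Of the 80 neuropeptide genes, 37 were higher in the mutants, 26 were lower and 17 did not pass the test. This was 46.25% of the members higher and 32.5% lower, against 42.5% and 41.2% of all genes. Among flp genes, 15 of 30 were higher and 8 were lower. Among nlp genes, 22 of 50 were higher and 18 were lower. The mutant and wild-type values did not overlap for 37 members that were higher and 24 that were lower, against 41.2% and 39% of all genes (80.2% in either direction). The median log2 fold change was 0.36 for flp genes, 0.12 for nlp genes and 0.0041 for all genes, and the nlp median was lower than the flp median by 0.25. These counts depend on the scaling between libraries. Scaled by library totals, 57 members were higher and 9 lower, against 60.1% and 23.3% of all genes. After quantile normalization 24 were higher and 37 lower, against 39.1% and 45.5% of all genes. Because RNA came from whole animals, fewer cells of a type and less RNA per cell cannot be told apart.

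**Figure D1:**
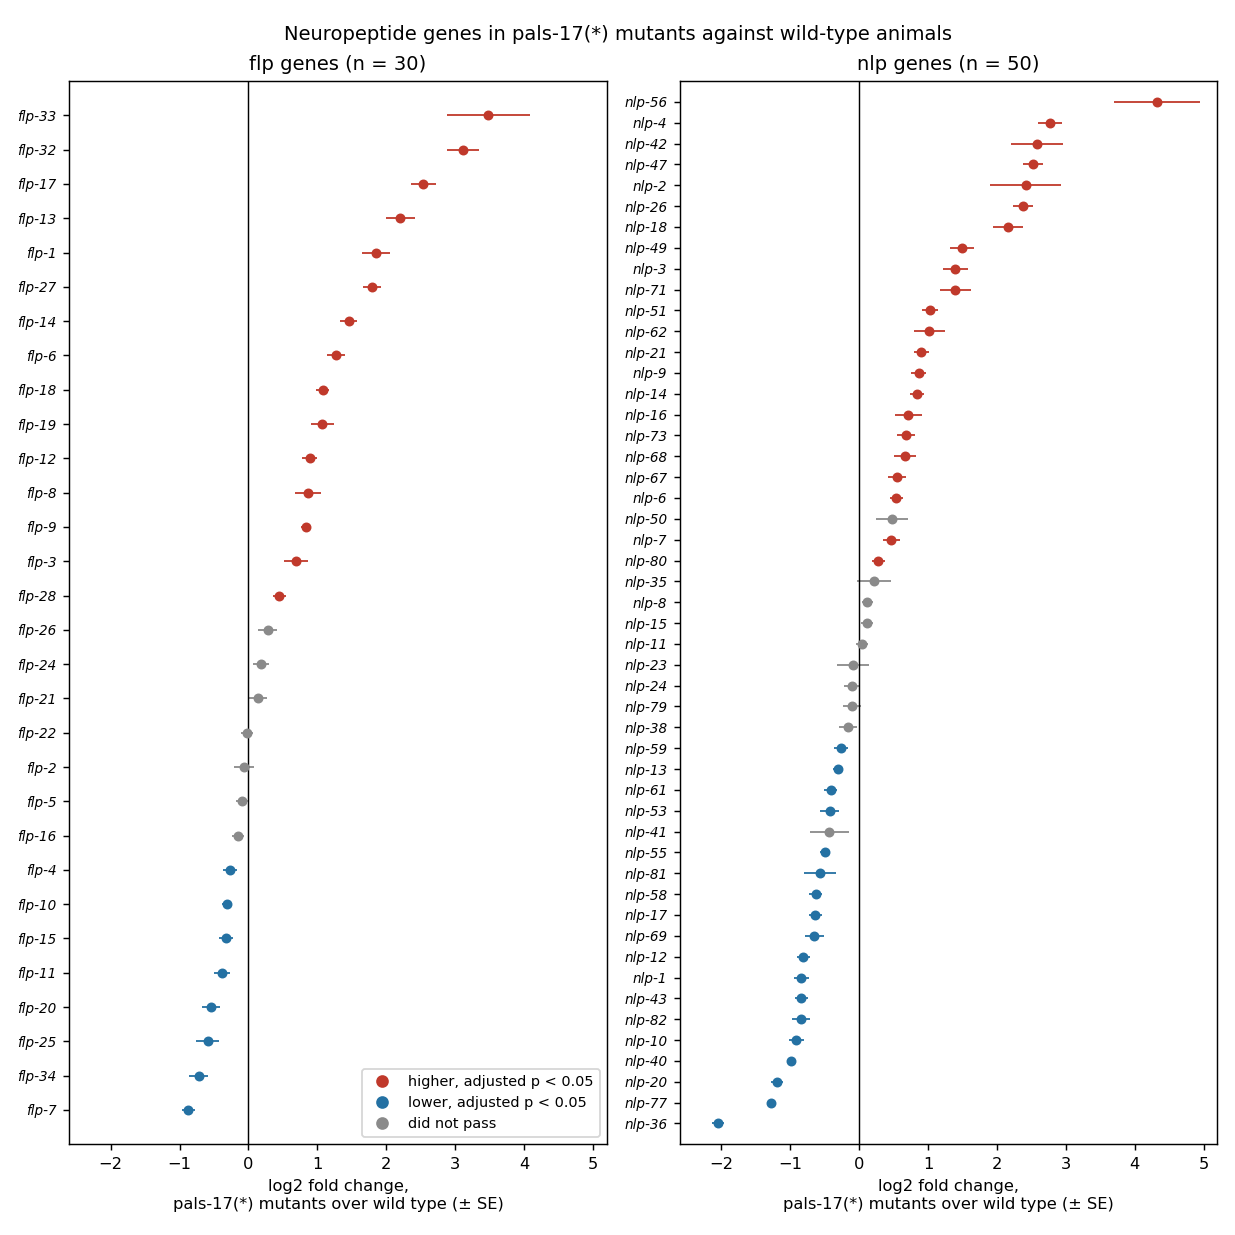
The plot shows the log2 fold change of pals-17(*) mutants over wild-type animals on the x axis for each flp gene (left, n = 30) and nlp gene (right, n = 50), from limma with 4 libraries per strain. Points are estimates, bars are standard errors, red marks genes that were higher, blue genes that were lower and grey genes that did not pass. The largest increases, of 3.48 for flp-33 and 4.32 for nlp-56, exceed the largest decreases, of -0.87 for flp-7 and -2.04 for nlp-36.

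At a log2 fold change above 2, the cutoff of the study's list of upregulated genes, or below -2, 11 members were upregulated and 1 was downregulated. Of all genes, 20.6% passed as upregulated and 7.48% as downregulated. The upregulated members were flp-33, flp-32, flp-17 and flp-13 among flp genes, and nlp-56, nlp-4, nlp-42, nlp-47, nlp-2, nlp-26 and nlp-18 among nlp genes. The downregulated member was nlp-36. It lies close to the threshold and was no longer past it without mutant replicate 1 or without wild-type replicate 4, although its decrease passed the test in both cases.

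The largest increases and decreases of each family were taken from called members with a mean of at least 1 CPM and separate strains. Their separation is therefore part of the choice. The flp genes with the largest increases were barely detected in wild-type animals. The gene flp-33 (WBGene00011586, chromosome I, 12624234 to 12625238 of WBcel235, minus strand) had 5.49, 5.90, 5.07 and 6.92 CPM in mutant replicates 1 to 4, against 1.44, 0.992, 0.258 and 0.136 CPM in wild-type replicates 1 to 4. The mutant libraries were close to each other, whereas the wild-type libraries spread widely, from 23 reads in replicate 1 to 2 reads in replicate 4. Its log2 fold change was 3.48 (SE 0.60, adjusted p = 0.000343). The gene flp-32 (WBGene00010982, chromosome X, 15433787 to 15434972, plus strand) had 3.39, 4.45, 3.84 and 3.94 CPM in the mutants, against 0.564, 0.313, 0.517 and 0.341 CPM in the wild type. All mutant libraries were far above all wild-type libraries, and the log2 fold change was 3.11 (SE 0.23, adjusted p = 6.61e-07).

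The next increases included flp genes with known roles in behavior. FLP-17 peptides, released by the BAG sensory neurons, act on the receptor EGL-6 to inhibit egg laying. The gene flp-17 (WBGene00001460, chromosome IV, 17190204 to 17191891, minus strand) had 5.80, 8.40, 6.04 and 6.24 CPM in the mutants, against 1.19, 1.25, 0.840 and 1.16 CPM in the wild type, with a log2 fold change of 2.54 (SE 0.18, adjusted p = 5.40e-07). Mutant replicate 2 was the highest, and the strains were well apart. FLP-13 peptides, released by the ALA neuron, quiet animals during stress-induced sleep. The gene flp-13 (WBGene00001456, chromosome IV, 7696932 to 7698420, minus strand) had 9.37, 9.81, 5.37 and 7.46 CPM in the mutants, against 1.75, 1.88, 1.36 and 1.70 CPM in the wild type. Its log2 fold change was 2.21 (SE 0.21, adjusted p = 3.59e-06), with mutant replicate 3 the lowest of its strain but still above every wild-type library.

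The increases of flp-1 and flp-27 were smaller. The gene flp-1, which encodes locomotor peptides of the AVK interneurons, had 8.12, 9.63, 6.97 and 6.39 CPM in the mutants and 1.88, 1.72, 2.07 and 2.93 CPM in the wild type (log2 fold change 1.85, SE 0.20, adjusted p = 9.43e-06). Here the wild-type high value was that of replicate 4. The gene flp-27 had 4.77, 5.14, 4.51 and 4.90 CPM in the mutants and 1.504, 1.31, 1.29 and 1.36 CPM in the wild type, the tightest groups among the 6 largest flp increases. Its log2 fold change was 1.80 (SE 0.13, adjusted p = 6.14e-07). Among the other 9 flp genes that were higher, flp-14, flp-6, flp-18 and flp-9 are named here after their values were seen. They had log2 fold changes of 1.45 for flp-14, 1.27 for flp-6, 1.08 for flp-18 and 0.83 for flp-9. The peptides of flp-18 act on several receptors, including NPR-1, in circuits for foraging and arousal, and its mRNA averaged 14.7 ± 0.664 CPM in the mutants and 6.95 ± 0.671 CPM in the wild type (SD, n = 4 each). The rest, flp-19, flp-12, flp-8, flp-3 and flp-28, had log2 fold changes of 0.45 to 1.07.

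The flp genes that were lower in the mutants showed modest decreases. The largest was that of flp-7 (WBGene00001450, chromosome X, 5885865 to 5886833, plus strand), whose peptides are released by the ASI neurons and promote fat loss in the intestine. It had 13.1, 14.05, 14.4 and 15.2 CPM in mutant replicates 1 to 4, against 24.2, 23.2, 27.8 and 28.7 CPM in wild-type replicates 1 to 4. The strains did not overlap, and the log2 fold change was -0.87 (SE 0.09, adjusted p = 9.53e-06). Of the 8 flp genes that were lower, flp-7 alone kept its call under each of the 4 other scalings.

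The gene flp-34, which encodes an NPY-like peptide, had 4.24, 3.33, 4.21 and 3.90 CPM in the mutants and 6.14, 5.54, 6.46 and 7.90 CPM in the wild type (log2 fold change -0.73, SE 0.14, adjusted p = 0.000856). The gene flp-25 had 3.48, 3.58, 4.62 and 4.25 CPM in the mutants and 5.33, 5.59, 5.43 and 7.83 CPM in the wild type (-0.59, SE 0.16, adjusted p = 0.0063). Wild-type replicate 4 was the highest library for both. The gene flp-20, expressed in touch receptor neurons, had 10.3, 11.5, 13.1 and 15.6 CPM in the mutants and 16.6, 17.5, 18.5 and 20.1 CPM in the wild type (-0.54, SE 0.13, adjusted p = 0.00289). The highest mutant library for flp-20 came close to the lowest wild-type library. The gene flp-15 had 19.9, 18.9, 21.3 and 20.7 CPM in the mutants and 23.4, 22.3, 26.3 and 30.1 CPM in the wild type (-0.33, SE 0.10, adjusted p = 0.0115). Under scaling by library totals, 6 of the 8 had log2 fold changes above 0, namely 0.0035 for flp-25, 0.05 for flp-20, 0.21 for flp-11, 0.29 for flp-10, 0.27 for flp-15 and 0.33 for flp-4, of which those of flp-10, flp-15 and flp-4 passed the test.

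The 7 flp genes that did not pass were flp-22, flp-24, flp-21, flp-26, flp-5, flp-2 and flp-16, with log2 fold changes of -0.15 to 0.28 and overlapping strains for every one. The closest to the threshold was flp-26 (0.28, adjusted p = 0.078), and the farthest was flp-22, with 20.2, 20.96, 21.4 and 19.5 CPM in the mutants and 19.1, 19.6, 20.6 and 23.9 CPM in the wild type (-0.02, SE 0.09, adjusted p = 0.869). The order of flp genes by level per kilobase of exon began with flp-28 in both strains, at 88.1 CPM per kb in the mutants and 64.7 CPM per kb in the wild type. The second in both was flp-15, at 45.1 CPM per kb in the mutants and 56.998 CPM per kb in the wild type. The gene flp-28 had 43.8, 51.2, 47.6 and 50.1 CPM in the mutants and 37.3, 30.4, 33.9 and 39.98 CPM in the wild type (log2 fold change 0.45, SE 0.09, adjusted p = 0.00121).

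The nlp gene with the largest increase was nlp-56 (WBGene00013334, chromosome IV, 14783324 to 14784737, minus strand). It had 81, 81, 77 and 77 reads in mutant replicates 1 to 4, against 3, 6, 3 and 0 reads in wild-type replicates 1 to 4. In CPM these were 3.61, 2.93, 2.87 and 2.95 in the mutants and 0.188, 0.313, 0.194 and 0 in the wild type. The gene was thus near the detection limit in wild-type animals and clearly present in every mutant library, with a log2 fold change of 4.32 (SE 0.62, adjusted p = 9.02e-05), a size that rests on few wild-type reads. The gene nlp-4 (WBGene00003742, chromosome I, 10517321 to 10518055, minus strand) had 6.96, 7.42, 6.60 and 7.46 CPM in the mutants, against 0.815, 0.940, 1.36 and 1.02 CPM in the wild type. The values were tight in both strains, and the log2 fold change was 2.77 (SE 0.17, adjusted p = 1.97e-07).

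The gene nlp-42, named mihp-2 in Ensembl release 115 (WBGene00013588, chromosome V, 18903772 to 18906252, plus strand), had 2.28, 2.10, 1.38 and 1.87 CPM in the mutants, against 0.251, 0.313, 0.581 and 0.136 CPM in the wild type (log2 fold change 2.58, SE 0.38, adjusted p = 0.000101). It was a low transcript in both strains, and the groups were apart. The gene nlp-47 (WBGene00018117, chromosome IV, 5290847 to 5293654, plus strand) encodes a peptide related to insect adipokinetic hormone and vertebrate gonadotropin-releasing hormone. It had 8.48, 9.77, 8.95 and 8.99 CPM in the mutants, against 1.32, 1.36, 1.81 and 1.77 CPM in the wild type. Its log2 fold change of 2.52 (SE 0.15, adjusted p = 1.26e-07) had the lowest adjusted p of the 37 members that were higher. The receptor of this peptide, encoded by gnrr-1 and named after its value was seen, had 0.943 ± 0.0652 CPM in the mutants and 0.606 ± 0.174 CPM in the wild type (SD, n = 4 each), a log2 fold change of 0.64 (SE 0.26, adjusted p = 0.041) that turned to -1.30 after quantile normalization.

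The genes nlp-2 and nlp-23 encode RPamide peptides, and those of nlp-2 act on GnRH-like receptors to promote wakefulness. They are neighbors on the minus strand of chromosome X, 987 bases apart. The gene nlp-2 (WBGene00003740, 2343947 to 2344766) had 2.05, 1.45, 1.19 and 2.26 CPM in the mutants, against 0.439, 0.575, 0.323 and 0.0681 CPM in the wild type (log2 fold change 2.42, SE 0.52, adjusted p = 0.00142). The gene nlp-23 (WBGene00003761, 2342391 to 2342959) had 2.77, 1.81, 1.90 and 1.87 CPM in the mutants and 2.95, 1.78, 2.52 and 1.70 CPM in the wild type (-0.09, SE 0.23, adjusted p = 0.724). The neighbors thus differed in their values, with separate strains for nlp-2 and overlapping strains for nlp-23, although the difference between them was not tested. The sixth of the largest increases was nlp-26, with 8.88, 9.99, 9.62 and 8.95 CPM in the mutants and 1.75, 2.25, 1.49 and 1.70 CPM in the wild type (2.37, SE 0.14, adjusted p = 1.69e-07).

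Named after their values were seen, nlp-18, nlp-49, nlp-21 and nlp-9 had log2 fold changes of 2.16 for nlp-18, 1.49 for nlp-49, 0.90 for nlp-21 and 0.86 for nlp-9. Peptides of nlp-49 act on the receptor SEB-3 to arouse animals, and its mRNA averaged 8.56 ± 1.86 CPM in the mutants and 2.99 ± 0.481 CPM in the wild type (SD, n = 4 each). A further 9 nlp genes without a value given elsewhere were higher by 0.28 to 1.39 on the log2 scale, namely nlp-73, nlp-80, nlp-67, nlp-6, nlp-16, nlp-71, nlp-51, nlp-62 and nlp-68. Of the 22 nlp genes that were higher, 11 kept the call under all 4 other scalings, and 6 took the opposite sign under at least 1 of them. Of the 15 flp genes that were higher, 11 kept the call, and none took the opposite sign under those scalings.

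**Figure D2:**
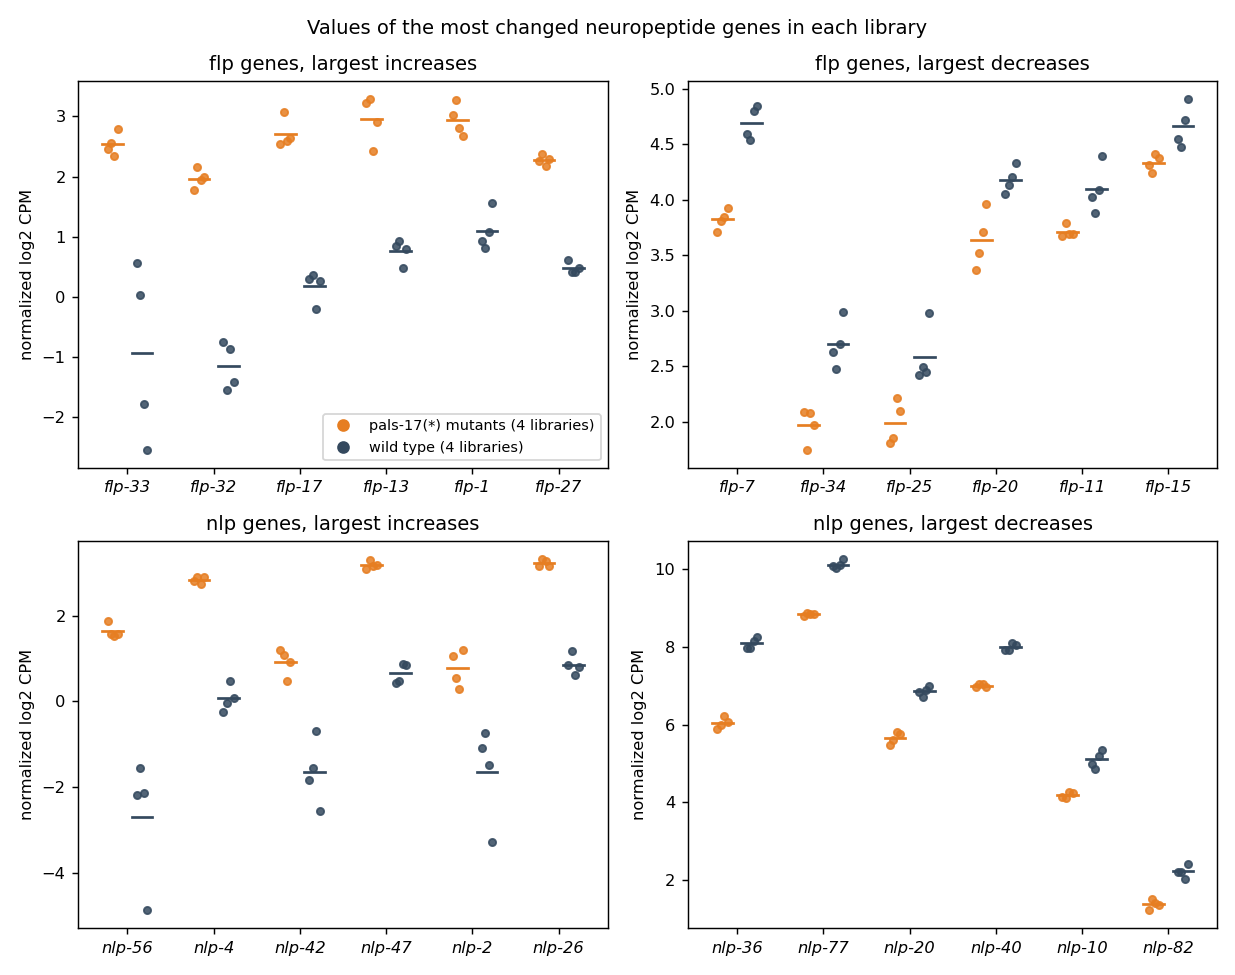
Each point is the normalized log2 CPM (y axis) of a gene in 1 library, for the 6 flp genes (top) and the 6 nlp genes (bottom) with the largest increases (left) and the largest decreases (right). Mutant libraries are orange and stand left of the dark wild-type libraries, and lines are means of 4 libraries. These 24 genes were chosen among members whose strains did not overlap, so their separation is not a result. The widest wild-type spreads are those of flp-33, nlp-56 and nlp-2.

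The nlp genes that were lower in the mutants included the most abundant neuropeptide transcripts of the wild type. The gene nlp-36 (WBGene00007185, chromosome III, 9488731 to 9489186, plus strand) had 59.4, 63.2, 74.8 and 66.4 CPM in mutant replicates 1 to 4, against 251, 251, 283 and 303 CPM in wild-type replicates 1 to 4. The strains were far apart, with a log2 fold change of -2.04 (SE 0.09, adjusted p = 1.95e-08), which was the lowest adjusted p of all members. The gene nlp-77, named srlf-1 in Ensembl release 115 (WBGene00015514, chromosome II, 7790591 to 7791375, plus strand), had 440, 467, 455 and 459 CPM in the mutants, against 1067, 1046, 1088 and 1223 CPM in the wild type. It was the highest nlp gene per kilobase of exon in both strains, at 727 CPM per kb in the mutants and 1766 CPM per kb in the wild type, and its log2 fold change was -1.28 (SE 0.06, adjusted p = 4.46e-08).

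The gene nlp-20 (WBGene00003758, chromosome IV, 7642054 to 7643071, minus strand) had 44.7, 48.7, 56.02 and 53.6 CPM in the mutants, against 114, 105, 118 and 127 CPM in the wild type (log2 fold change -1.20, SE 0.09, adjusted p = 5.54e-07). All mutant libraries were below all wild-type libraries by a wide margin. NLP-40 is an intestinal peptide that sets the defecation rhythm through the receptor AEX-2 on the DVB neuron. The gene nlp-40 (WBGene00022276, chromosome I, 11495 to 16837, plus strand) had 124, 131, 132 and 124 CPM in the mutants, against 243, 240, 272 and 262 CPM in the wild type (-0.99, SE 0.06, adjusted p = 1.502e-07). The values were tight and separate, and aex-2 was also lower, at 1.66 ± 0.196 CPM in the mutants and 2.47 ± 0.265 CPM in the wild type (SD, n = 4 each; log2 fold change -0.58, SE 0.16, adjusted p = 0.0071), although aex-2 was at 0.02 under scaling by library totals. Beside the fall of nlp-40, the 7 intestinal markers had a median of -2.01 on the log2 scale, and their part in it was not tested.

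Smaller decreases were seen for nlp-10 and nlp-82. The gene nlp-10 had 17.6, 17.2, 19.3 and 18.9 CPM in the mutants and 31.9, 29.2, 36.7 and 40.8 CPM in the wild type (log2 fold change -0.91, SE 0.11, adjusted p = 1.94e-05). The gene nlp-82 had 2.32, 2.82, 2.65 and 2.56 CPM in the mutants and 4.64, 4.65, 4.07 and 5.31 CPM in the wild type (-0.85, SE 0.13, adjusted p = 0.000183). Both had separate strains. Named after their values were seen, nlp-1 encodes peptides of the AWC olfactory neurons and nlp-12 encodes cholecystokinin-like peptides of the stretch-sensitive DVA neuron. The gene nlp-1 averaged 19.2 ± 1.74 CPM in the mutants and 34.4 ± 4.18 CPM in the wild type (log2 fold change -0.84), and nlp-12 averaged 31.9 ± 2.04 CPM in the mutants and 56.2 ± 7.18 CPM in the wild type (-0.81; SD, n = 4 each). The NLP-12 receptor gene ckr-2 had 2.57 ± 0.445 CPM in the mutants and 1.70 ± 0.331 CPM in the wild type (SD, n = 4 each), with a log2 fold change of 0.58 (SE 0.20, adjusted p = 0.0195), overlapping strains and -0.45 after quantile normalization. The remaining 10 nlp genes that were lower, nlp-13, nlp-58, nlp-59, nlp-69, nlp-61, nlp-53, nlp-81, nlp-17, nlp-55 and nlp-43, had log2 fold changes of -0.84 to -0.26. Of the 18 nlp genes that were lower, 8 kept the call under all 4 other scalings, namely nlp-36, nlp-77, nlp-20, nlp-40, nlp-10, nlp-1, nlp-12 and nlp-43, and 6 took the opposite sign under at least 1 of them.

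The 10 nlp genes that did not pass were nlp-24, nlp-8, nlp-23, nlp-35, nlp-79, nlp-50, nlp-11, nlp-41, nlp-15 and nlp-38, with log2 fold changes of -0.43 to 0.48 and overlapping strains for each. The most abundant of them was nlp-24, whose opioid-like peptides act on feeding in starved animals, with 105, 131, 126 and 122 CPM in the mutants and 125, 146, 107 and 144 CPM in the wild type (-0.10, SE 0.11, adjusted p = 0.395). The closest to the threshold was nlp-50 (0.48, adjusted p = 0.0729). At the other side of the threshold, the called members with the highest adjusted p were nlp-81 (-0.57, adjusted p = 0.0399), nlp-59 (-0.26, adjusted p = 0.0379) and flp-4 (-0.26, adjusted p = 0.036), of which nlp-81 and flp-4 had overlapping strains.

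As deposited, genes of peptides linked to sleep did not share a direction. Of the 6 genes on that list, nlp-22 was not analysed here, flp-13 and nlp-14 were higher, flp-11 was lower, and flp-24 and nlp-8 did not pass. Among all genes, 42.5% were higher and 41.2% lower. The gene nlp-14 had 17.2, 16.98, 14.7 and 15.7 CPM in the mutants and 8.65, 9.19, 8.08 and 10.3 CPM in the wild type (log2 fold change 0.83, SE 0.10, adjusted p = 2.61e-05). In contrast, flp-11, whose peptides act from the RIS neuron to induce sleep, had 12.7, 13.8, 12.9 and 12.9 CPM in the mutants and 16.2, 14.7, 16.99 and 20.98 CPM in the wild type (-0.38, SE 0.11, adjusted p = 0.00842). The genes flp-24 and nlp-8 act with flp-13 in the ALA neuron. Their log2 fold changes were 0.18 for flp-24 (adjusted p = 0.173) and 0.12 for nlp-8 (adjusted p = 0.188). As deposited, the ALA peptide genes thus also differed in call. These directions depend on the scaling. Under library totals flp-11 was at 0.21, flp-24 at 0.78 and nlp-8 at 0.71. Scaled to the pan-neuronal list, the values were 0.05 for flp-11, 0.62 for flp-24 and 0.56 for nlp-8. Under median centring they were -0.66, -0.09 and -0.16. RIS and ALA are single cells, and no marker restricted to them was on the lists.

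Of the 5 genes on the egg-laying list, nlp-3, nlp-7 and flp-17 were higher and flp-10 and flp-11 were lower. Among all genes, 42.5% were higher and 41.2% lower. Peptides of nlp-3 act with serotonin from the HSN neurons to stimulate egg laying. The gene nlp-3 had 6.02, 6.81, 6.90 and 6.77 CPM in the mutants and 2.57, 1.78, 2.58 and 3.27 CPM in the wild type (log2 fold change 1.40, SE 0.18, adjusted p = 4.04e-05). The gene nlp-7, whose peptides inhibit egg laying, had 11.1, 11.005, 13.4 and 14.001 CPM in the mutants and 8.65, 7.57, 9.30 and 10.1 CPM in the wild type (0.47, SE 0.13, adjusted p = 0.00558). Members that stimulate and members that inhibit egg laying were thus both among the higher genes. Peptides of flp-10 and flp-17 share the receptor EGL-6, and as deposited flp-17 was higher and flp-10 lower. The gene flp-10 had 20.3, 19.9, 19.4 and 19.5 CPM in the mutants and 25.6, 25.1, 25.2 and 22.3 CPM in the wild type (-0.31, SE 0.07, adjusted p = 0.00219). Its log2 fold change was 0.29 with library totals (adjusted p = 0.00369) and 0.13 with the pan-neuronal list (adjusted p = 0.167), against -0.31 as deposited. The receptor gene egl-6 was higher, with 3.35, 3.91, 4.44 and 3.75 CPM in the mutants and 1.25, 0.888, 1.94 and 1.02 CPM in the wild type (1.63, SE 0.24, adjusted p = 0.000107). The median log2 level of the oocyte and embryo markers moved with the strains as given above, and its part in the values of these genes was not tested.

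The change of a member varied with its wild-type level, as it did among all genes. Of the 15 members under 2 CPM in the wild type, 14 were higher and 1 was lower, and among all genes in this range 84.2% were higher. Of the 35 members at 2 to 10 CPM, 19 were higher and 6 were lower, against 46.97% and 32.3% of all genes. Of the 24 members at 10 to 50 CPM, 4 were higher and 14 were lower, against 33.8% and 47.4% of all genes. Of the 6 members at 50 CPM or more, all nlp genes, 5 were lower and none higher, against 74.7% and 12.3% of all genes. Grouping by the wild-type level uses values that enter the fold change, so these shares are a description. Across the 80 genes, which are not independent replicates, log2 levels in the mutants and in the wild type had a Pearson r of 0.873 and a Spearman rho of 0.856, and this r was 0.764 over flp genes and 0.902 over nlp genes.

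**Figure D3:**
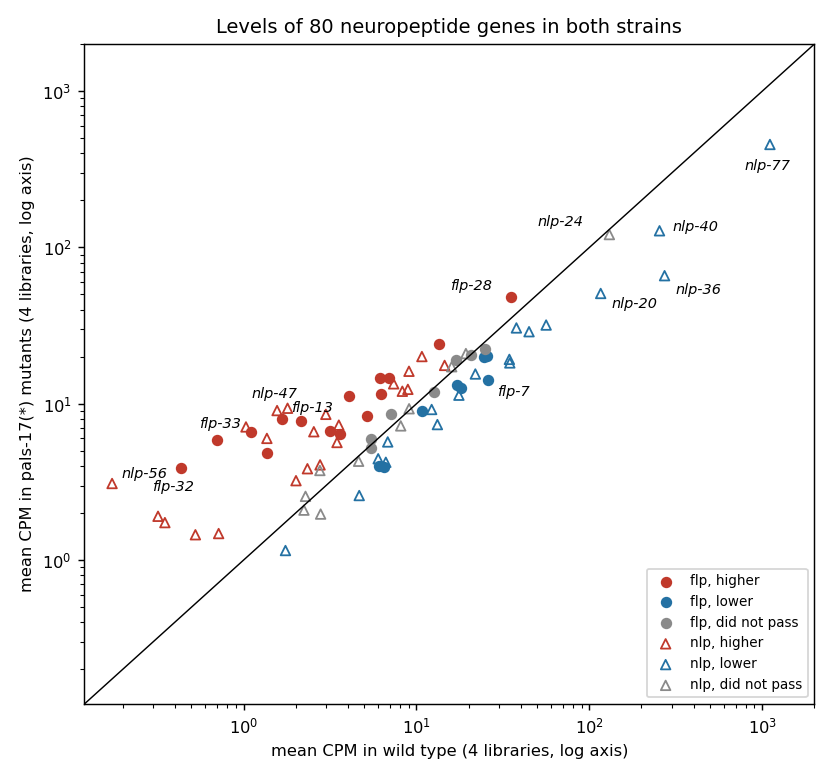
Each symbol is a neuropeptide gene, placed by its mean CPM in wild-type animals (x axis) and in pals-17(*) mutants (y axis), both on log axes with 4 libraries per strain. Filled circles are flp genes, open triangles are nlp genes, colors give the call, and the line marks equal levels. Low genes such as nlp-56, flp-33 and flp-32 lie above the line, and the high nlp genes nlp-77, nlp-36, nlp-40 and nlp-20 lie below it.

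The makeup of each family within a library does not depend on a scaling factor between libraries. The nlp reads were concentrated in few genes, and less so in the mutants. The gene nlp-77 held 36.4% ± 0.631 of the summed nlp CPM in the mutants and 47.4% ± 0.503 in the wild type (SD, n = 4 each), and the top 5 genes held 65.5% in the mutants and 80.6% in the wild type. The share of nlp-36 was 5.26% ± 0.405 in the mutants and 11.7% ± 0.441 in the wild type. The share of nlp-24 was 9.64% ± 0.613 in the mutants and 5.61% ± 0.833 in the wild type, although its CPM did not pass the test. None of these shares overlapped between strains. The summed nlp CPM was 1252 ± 38.8 in the mutants and 2331 ± 157 in the wild type, whereas without nlp-77, nlp-36, nlp-40, nlp-20 and nlp-24 the sum over the other 45 nlp genes was 432 ± 7.87 in the mutants and 452 ± 32.5 in the wild type. As deposited, the lower nlp sum lay mainly in nlp-77, nlp-36, nlp-40 and nlp-20, of which nlp-77 was the largest. The gene nlp-24, at 121 CPM in the mutants and 130 CPM in the wild type, did not pass. The genes left out were the top 5 of these same data, so leaving them out was bound to change the sum most. Unlike the shares, these sums depend on the scaling between libraries, and they were not compared under the other scalings.

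The flp reads were spread more evenly. As deposited, the summed flp CPM was 373 ± 12.3 in the mutants and 320 ± 27.2 in the wild type (SD, n = 4 each). Under that scaling, wild-type replicate 4, at 357 CPM, came close to the lowest mutant library, at 360 CPM. The flp sum also depends on the scaling between libraries. The largest share was that of flp-28, with 12.9% ± 0.501 in the mutants and 11.1% ± 0.782 in the wild type. The shares of flp-9 and flp-7 changed places. The share of flp-9 was 6.42% ± 0.209 in the mutants and 4.23% ± 0.267 in the wild type, which put it at rank 2 in the mutants and 10 in the wild type. The share of flp-7 was 3.80% ± 0.203 in the mutants and 8.13% ± 0.397 in the wild type, which put it at rank 10 in the mutants and 2 in the wild type.

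Neuropeptide genes were frequent on the X chromosome. It holds 24 of the 80 members (30%), including 13 of 30 flp genes (43.3%) and 11 of 50 nlp genes (22%), against 13.55% of the genes of the table with a known chromosome. Of the 24 X-linked members, 14 were higher and 6 were lower, and their median log2 fold change was 0.50. Of all X-linked genes, 23.8% were higher and 58.7% were lower, with a median of -0.56. The median was 0.12 over the 56 autosomal members and 0.11 over all autosomal genes. The split by chromosome was chosen after the values were seen, and whether the members differ from other X-linked genes was not tested. Scaled by library totals, 17 X-linked members were higher and 2 lower, against 39.2% and 37.8% of all X-linked genes. After quantile normalization 7 were higher and 10 lower, against 16.5% and 70.6% of all X-linked genes.

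A cluster on the minus strand of chromosome X holds flp-28 (10087314 to 10087966), flp-3 (10091946 to 10092964) and flp-2 (10094430 to 10095245), with gaps of 3979 and 1465 bases. The log2 fold changes were 0.45 for flp-28, 0.69 for flp-3 and -0.06 for flp-2, so that flp-28 and flp-3 were called higher and flp-2 did not pass. Peptides of flp-2 promote arousal, and its gene had 4.51, 5.86, 5.15 and 5.28 CPM in the mutants and 5.77, 4.54, 4.91 and 6.54 CPM in the wild type. Of the 80 members, 16 share exon bases with another gene, mostly on the opposite strand. The largest overlaps were 15.7% of the exon length of nlp-35, 7.44% of nlp-26, 6.91% of nlp-17 and 6.37% of nlp-24, and it is not given whether counting used the strand.

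The members varied more among wild-type libraries than among mutant libraries. The median SD of log2 values within a strain was 0.1003 in the mutants and 0.204 in the wild type for flp genes, and 0.116 in the mutants and 0.182 in the wild type for nlp genes. The wild-type SD was the wider one for 61 of 80 members (76.25%), against 58.06% of all genes. The median wild-type level was 6.58 CPM over the members and 13.3 CPM over all genes, so these shares compare genes of unlike level. Wild-type replicate 4 was the highest wild-type library for 46 of 80 members (57.5%), against 28.7% of all genes. It was also the wild-type library with the lowest oocyte and embryo markers, and the part of that difference in the neuropeptide values was not tested. Without wild-type replicate 4, 39 members were higher and 23 were lower, against 42.2% and 40.6% of all genes.

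Of 18 genes that process and release neuropeptides, 1 was higher, 10 were lower and 7 did not pass, against 42.5% of all genes higher and 41.2% lower, and their median was -0.31 on the log2 scale. Over the 4 other scalings the list ran between 16 genes lower with a median of -0.59 under median centring and 11 higher and 5 lower with a median of 0.29 under library totals. Of all genes, 36.1% were higher and 50% lower under median centring, and 60.1% and 23.3% under library totals. The largest decreases were those of aex-5, a proprotein convertase that acts in defecation, with 34.5 ± 3.33 CPM in the mutants and 97.0 ± 1.31 CPM in the wild type (log2 fold change -1.50, SE 0.08, adjusted p = 4.57e-08), and of cpd-1, a carboxypeptidase (-1.27). The carboxypeptidase E gene egl-21, which trims most neuropeptides, had 146 ± 15.7 CPM in the mutants and 253 ± 10.7 CPM in the wild type (-0.80, SE 0.08, adjusted p = 5.77e-06), and the amidation enzyme gene pamn-1 was also lower (-0.73). The main convertase gene egl-3 (-0.14, adjusted p = 0.0764) and its chaperone gene sbt-1 (-0.06, adjusted p = 0.321) did not pass, and both turned to higher under library totals, at 0.46 for egl-3 and 0.53 for sbt-1.

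Of 65 receptor genes of the table with neuropeptide receptor names, 13 were higher, 24 were lower and 28 did not pass, against 42.5% of all genes higher and 41.2% lower, and their median was -0.19 on the log2 scale. These receptor genes were low, with a median level of 2.08 CPM in the mutants and 2.13 CPM in the wild type. The median level of all genes was 16.1 CPM in the mutants and 13.3 CPM in the wild type, so the shares compare genes of unlike level. With library totals 32 receptor genes were higher and 9 lower, with a median of 0.41, against 60.1% and 23.3% of all genes. After quantile normalization 5 were higher and 53 lower, with a median of -1.30, against 39.1% and 45.5% of all genes. The largest changes were an increase of dmsr-12 (2.91), with 2.43 ± 0.371 CPM in the mutants and 0.302 ± 0.0886 CPM in the wild type, and a decrease of frpr-5 (-2.56), with 1.86 ± 0.338 CPM in the mutants and 11.1 ± 2.18 CPM in the wild type (SD, n = 4 each). FLP-13 peptides act on DMSR-1 and FRPR-4. While flp-13 was higher, dmsr-1 did not pass (-0.05, adjusted p = 0.69), and frpr-4, named after its value was seen, had 1.78, 1.74, 1.19 and 1.61 CPM in the mutants and 7.27, 7.52, 7.62 and 8.11 CPM in the wild type (-2.28, SE 0.15, adjusted p = 3.41e-07). For npr-1, a receptor of FLP-18 and FLP-21 peptides, the log2 fold change was -0.47 (SE 0.21, adjusted p = 0.0569), at 0.975 ± 0.220 CPM in the mutants and 1.33 ± 0.120 CPM in the wild type, with overlapping strains.

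Of 6 precursor genes with other names, 3 were higher, 1 was lower and 2 did not pass. The shares over all genes, for these and the antimicrobial genes below, were 42.5% higher and 41.2% lower. The nematocin gene ntc-1, related to vasopressin and oxytocin, was at 1.17 ± 0.0871 CPM in the mutants and 0.275 ± 0.0674 CPM in the wild type (1.99, SE 0.25, adjusted p = 3.40e-05). The gene snet-1 had a log2 fold change of 0.73, and pdf-1, which encodes pigment dispersing factor peptides, one of 0.33, while pdf-2 (-0.16, adjusted p = 0.172) did not pass. Of the 7 antimicrobial nlp genes that were left out of the members, 2 were higher, 3 were lower and 2 did not pass, led by nlp-28 (3.06) and nlp-27 (2.19).

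Pan-neuronal genes mark neurons at large. Of the 15 on the list, 2 were higher, 10 were lower and 3 did not pass, against 42.5% of all genes higher and 41.2% lower, and their median was -0.39 on the log2 scale, with the largest decreases in unc-13 (-1.29) and ric-19 (-1.11). Their summed level ranged from 484 to 530 CPM in the mutants and from 684 to 714 CPM in the wild type, and none was at 0. With library totals 7 were higher and 3 lower, with a median of 0.21, against 60.1% and 23.3% of all genes. Under median centring 1 was higher and 13 lower, with a median of -0.67, against 36.1% and 50% of all genes. The part of the pan-neuronal difference in the values of the members was not tested. Of 10 genes that mark neurotransmitter classes, 3 were higher and 1 was lower. The largest increase there, of 6.12, was that of tbh-1, which makes octopamine in the RIC neurons and is also expressed in gonadal sheath cells. When libraries were instead scaled so that the pan-neuronal genes kept their level, 50 members were higher and 10 were lower. Of all genes, 54.6% were then higher and 26.9% lower, with a median of 0.44.

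The calls of both families were compared under 5 scalings between libraries. Higher and lower flp genes numbered 15 and 8 as deposited, 14 and 12 after median centring, 12 and 12 after quantile normalization, 22 and 1 with the pan-neuronal list, and 25 and 1 with library totals. Higher and lower nlp genes numbered 22 and 18 as deposited, 18 and 23 after median centring, 12 and 25 after quantile normalization, 28 and 9 with the pan-neuronal list, and 32 and 8 with library totals. Of all genes, 36.1% were higher and 50% lower after median centring, and 39.1% and 45.5% after quantile normalization. With the pan-neuronal list 54.6% of all genes were higher and 26.9% lower, and with library totals 60.1% and 23.3%. Under library totals the median of all genes was 0.60, under median centring -0.27 and under quantile normalization -0.12. Relative to the median of all genes, the flp median was 0.36 and the nlp median 0.11 as deposited. Library totals, median centring and the pan-neuronal list move all genes of a library by the same log2 amount, so they cannot change these values. Quantile normalization, which can change them, gave 0.13 for flp and -0.26 for nlp. A filter at a mean of 5 CPM, which is not a scaling, gave 0.14 for flp and -0.11 for nlp.

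**Figure D4:**
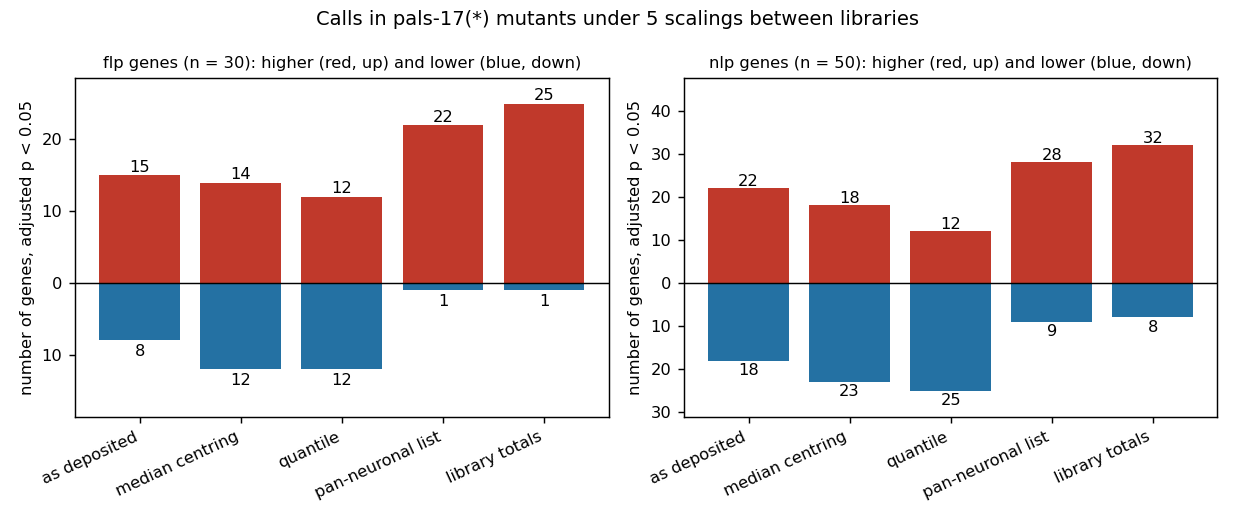
Bars give the number of flp genes (left, n = 30) and nlp genes (right, n = 50) that were higher (red, upward) or lower (blue, downward) in pals-17(*) mutants at an adjusted p under 0.05, under 5 scalings between libraries on the x axis. With library totals, 25 flp genes and 32 nlp genes were higher, against 60.1% of all genes. After quantile normalization 12 of each were higher, against 39.1% of all genes.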

How the data were processed

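RNA was extracted with TriReagent and RNeasy columns, and libraries were made with a TruSeq Stranded mRNA kit. Per the study's methods, Rsubread was used to map the reads of both ends to genome WS235, and limma-voom to test genes after those under 1 CPM were removed. featureCounts is among the tools in the submitters' processing notes. The strand setting of counting, the scaling method and the tool versions are not given in the sources used here. The deposited values are normalized log2 CPM, computed by the authors as reads plus 0.5 over a scaled library size. From the steps between low values, whole reads were recovered for every value within 0.01. The entry without a gene name (0.00417% of the reads) was left out.

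All 14541 genes were fitted with limma 3.58.1 in R 4.3.3 (intensity trend, no block, two-sided, Benjamini-Hochberg over all genes), and genes were called at an adjusted p under 0.05. Samples were grouped by their titles. Per the study's methods, the animals of a replicate came from up to 4 plates of their strain, and p-values measure the spread between these libraries. On simulated counts of 14541 genes for this comparison, the fit recovered 49 of 50 genes raised by 1 on the log2 scale, 48 of 50 lowered by 1 and all of those changed by 3. Most genes were unchanged there, of which 6 were called, and the scaling was known. The simulation therefore cannot show how the calls hold where most genes differ or the scaling is uncertain.

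Genes were named with values if they were among the 6 largest increases or decreases per family (adjusted p under 0.05, mean of at least 1 CPM, separate strains), on the sleep or egg-laying list, among the 3 highest per kilobase, not past the test, or on the receptor, precursor and processing lists. The members and lists were chosen with earlier results of these data known. Exon lengths and coordinates are from Ensembl release 115 (WBcel235), where all 80 member IDs matched and 75 had the same name. A further 18 annotated flp and nlp genes were not analysed here. Alternatives were voom weights, no trend, robust estimation, a replicate block, 0.1 or 1 CPM added, filters at 1 CPM in 4 libraries or a mean of 5 CPM, 4 other scalings, each library left out, an adjusted p of 0.01 and a log2 fold change of 1.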

Additional observations from a re-analysis of the deposited data

Results flagged for a closer look

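In groups of 4 libraries, the highest or lowest library was singled out when its gap to the nearest other exceeded 0.829 of the range, which chance gives in about 1 in 20 groups. Of 194 groups checked, 10 were singled out. All values are log2 CPM. In mutant replicate 1, nlp-56 was high at 1.86 (others 1.53 to 1.57), nlp-23 was high at 1.48 (others 0.87 to 0.94), nlp-3 was low at 2.60 (others 2.76 to 2.79) and flp-14 was low at 3.15 (others 3.55 to 3.62). In wild-type replicate 4, flp-25 was high at 2.98 (others 2.42 to 2.49), flp-10 was low at 4.48 (others 4.65 to 4.68) and aex-2 was high at 1.53 (others 1.22 to 1.27). In mutant replicate 3, npr-1 was high at 0.40 (others -0.20 to -0.15). The median of the receptor list was high in mutant replicate 2 at 1.20 (others 1.02 to 1.05), and the median of the processing and release list was high in mutant replicate 1 at 5.55 (others 5.28 to 5.29).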

How the results depend on the processing

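Of 1158 values of named members under the alternatives, 1064 kept their direction and side of the threshold, 10 were no longer called, 37 became called and 47 changed sign. For genes outside the members, 690 of 746 were kept, 28 were no longer called, 12 became called and 16 changed sign. The causes were not tested. Under library totals, 25 flp genes were higher and 1 lower, 8 nlp genes were lower, the flp median was 0.96, the nlp median 0.71 and 0 members were downregulated. With the pan-neuronal list, 1 flp gene and 9 nlp genes were lower, the medians were 0.80 for flp and 0.55 for nlp, and 0 members were downregulated. Median centring gave medians of 0.09 for flp and -0.16 for nlp. Quantile normalization gave 12 nlp genes higher, medians of 0.02 for flp and -0.37 for nlp, and 2 members upregulated. A filter at a mean of 5 CPM, which left 54 members, gave 8 flp and 10 nlp genes higher, medians of -0.02 for flp and -0.26 for nlp, and 2 upregulated. With 1 CPM added, 2 members were upregulated. At a log2 threshold of 1, 22 were upregulated and 3 downregulated.

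With 1 library left out, 15 to 16 flp genes were higher and 7 to 8 lower, 21 to 23 nlp genes were higher and 16 to 18 lower, the medians were 0.29 to 0.42 for flp and 0.06 to 0.15 for nlp, 10 to 11 members were upregulated, and 0 to 1 downregulated (0 without mutant replicate 1 or wild-type replicate 4). Log2 fold changes that crossed 0 without a library were those of flp-22 (-0.06 to 0.05), flp-2 (-0.14 to 0.03), nlp-23 (-0.23 to 0.05) and nlp-35 (-0.00026 to 0.36).

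Among genes given with a value, log2 fold changes that changed sign under library totals were those of flp-4 (0.33), nlp-59 (0.33), nlp-81 (0.02), flp-25 (0.0035), flp-20 (0.05), flp-11 (0.21), flp-15 (0.27), flp-22 (0.58), nlp-24 (0.49), flp-10 (0.29), nlp-23 (0.51), flp-5 (0.51), flp-2 (0.54), nlp-79 (0.49), flp-16 (0.45), nlp-41 (0.16), nlp-38 (0.44), egl-3 (0.46), sbt-1 (0.53), npr-1 (0.13), aex-2 (0.02), dmsr-1 (0.55) and pdf-2 (0.43). With the pan-neuronal list they were flp-4 (0.17), nlp-59 (0.18), flp-11 (0.05), flp-15 (0.11), flp-22 (0.42), nlp-24 (0.33), flp-10 (0.13), nlp-23 (0.35), flp-5 (0.35), flp-2 (0.38), nlp-79 (0.33), flp-16 (0.29), nlp-41 (0.01), nlp-38 (0.28), egl-3 (0.30), sbt-1 (0.38), dmsr-1 (0.39) and pdf-2 (0.28). Under median centring they were flp-24 (-0.09), nlp-8 (-0.16), flp-21 (-0.14), nlp-35 (-0.06), nlp-11 (-0.24) and nlp-15 (-0.16). After quantile normalization they were nlp-24 (0.38), flp-24 (-0.01), nlp-8 (-0.03), flp-21 (-0.59), flp-26 (-0.29), nlp-35 (-0.78), nlp-50 (-0.46), nlp-11 (-0.45), nlp-15 (-0.11), egl-3 (0.51), sbt-1 (0.28), ckr-2 (-0.45), unc-54 (0.01), myo-3 (0.13) and gnrr-1 (-1.30). Among the nlp genes given only by a range, those that changed sign were nlp-13 (0.29), nlp-61 (0.18), nlp-53 (0.17) and nlp-55 (0.10) under library totals, nlp-13 (0.13), nlp-61 (0.02) and nlp-53 (0.01) with the pan-neuronal list, and nlp-73 (-0.15), nlp-67 (-0.37), nlp-16 (-0.23), nlp-71 (-0.12), nlp-62 (-0.40) and nlp-68 (-0.33) after quantile normalization.

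With the replicate number as a block, 60 of the 63 member calls were kept, 3 were lost and 1 was gained. This left 38 higher and 23 lower, against 42.5% and 41.4% of all genes. Same-numbered mutant and wild-type libraries had correlations of their deviations of 0.0731, 0.0621, 0.0076 and -0.0167. Not every library correlated best with its own number, and the largest value was 0.221, of mutant replicate 1 with wild-type replicate 2. Such correlations cannot tell whether same-numbered libraries were grown or prepared together. Depth limits low genes, since one wild-type read is 0.0522 to 0.0681 CPM. Intervals are not given, and the SEs cover the spread between libraries.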
